A study of Mus musculus with 10 samples.

Results

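The circadian clock genes described here are Clock, Arntl, Npas2, Per1, Per2, Per3, Cry1, Cry2, Nr1d1 and Dbp, which were taken by symbol from a fixed list. All 10 were present among the 32531 gene symbols of the count tables, and all 10 had enough reads to be tested. The RNA came from the whole striatum of adult Chat-TRAP DW167 mice, which carry ribosomal protein Rpl10a joined to EGFP, a fluorescent tag, under Chat control, and which so label the ribosomes of cholinergic neurons. Tagged polysomes were pulled down with antibodies to EGFP, and their RNA was sequenced from mice with saline self-administration, mice with cocaine self-administration and yoked controls, with 3 libraries in each group. 1 further library, the input, was made from total RNA of the saline group without pull-down, so it has no replicate. Whether animals were pooled, what the yoked controls received, the exact age and the hour of tissue collection are not given in the labels. The p values below therefore measure only the spread between libraries.

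Gene counts per immunopurified library ranged from 24526765 to 75220922, and the input held 40912230. Levels are given as CPM, the gene's count per 1000000 gene counts of its library. The 10 cholinergic neuron markers, among them Chat, were all at least 2-fold above the input in every saline library, and the median of their log2 ratios was 5.53 ± 0.15 (SD over the 3 libraries). The 3 libraries numbered 2 stood apart from the others: their mean correlation with the other 8 libraries, across genes, was 0.950 for saline library 2, 0.939 for cocaine library 2 and 0.955 for yoked library 2, against 0.968 to 0.972 for the rest. The labels place the saline libraries on lane 3, the cocaine and yoked libraries on lane 4 and the input on lane 5, so wherever saline or input is 1 side of a comparison the lane cannot be told apart from the group.

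The clock is a transcriptional feedback loop that runs in nearly every cell. BMAL1, the product of Arntl, pairs with CLOCK or with NPAS2, a relative of CLOCK that is prominent in the forebrain, and the pair switches on genes that carry an E-box. Among these are the Per and Cry genes, whose proteins inhibit the pair, and Nr1d1, whose protein REV-ERBα represses Arntl. Dbp is an E-box target that in turn acts on genes with a D-box, such as Per3. In most tissues the RNA of Arntl peaks when the RNA of Dbp, Nr1d1 and the Per genes is low.

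RefSeq promoter sequences (GRCm38.p6, the assembly also called mm10) were at hand for 9 of the 10 members, all but Per2, with 250 bases before and 50 after each of 13 start sites. Those of Per1, Per3, Cry1 and Nr1d1 are shown as examples of promoters with an E-box, its variant or a D-box. Sites of other factors, such as REV-ERBα, are not marked. Capitals mark the E-box CACGTG, its variant CACGTT and the D-box, searched on both strands; CACGTT reads AACGTG on the other strand.
Per1, chr11:69098699-69098998, plus strand: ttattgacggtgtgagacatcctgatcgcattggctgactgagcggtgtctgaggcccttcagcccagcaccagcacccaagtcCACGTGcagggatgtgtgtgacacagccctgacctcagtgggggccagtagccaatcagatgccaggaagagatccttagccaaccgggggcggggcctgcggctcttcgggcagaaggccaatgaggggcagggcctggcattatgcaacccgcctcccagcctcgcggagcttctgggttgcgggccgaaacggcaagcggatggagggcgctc
Cry1, chr10:85185005-85185304, minus strand: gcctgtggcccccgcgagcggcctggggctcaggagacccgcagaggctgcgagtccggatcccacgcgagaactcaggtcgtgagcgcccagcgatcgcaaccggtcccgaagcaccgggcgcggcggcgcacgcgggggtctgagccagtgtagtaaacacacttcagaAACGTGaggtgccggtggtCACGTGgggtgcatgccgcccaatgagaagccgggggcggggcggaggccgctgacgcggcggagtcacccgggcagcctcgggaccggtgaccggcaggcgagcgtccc
Nr1d1, chr11:98775328-98775627, minus strand: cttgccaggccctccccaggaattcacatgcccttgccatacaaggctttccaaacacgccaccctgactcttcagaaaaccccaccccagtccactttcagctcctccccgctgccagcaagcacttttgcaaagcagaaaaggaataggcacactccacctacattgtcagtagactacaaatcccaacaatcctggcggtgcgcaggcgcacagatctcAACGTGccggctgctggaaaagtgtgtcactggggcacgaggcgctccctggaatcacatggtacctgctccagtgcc
Per3, chr4:151044616-151044915, minus strand: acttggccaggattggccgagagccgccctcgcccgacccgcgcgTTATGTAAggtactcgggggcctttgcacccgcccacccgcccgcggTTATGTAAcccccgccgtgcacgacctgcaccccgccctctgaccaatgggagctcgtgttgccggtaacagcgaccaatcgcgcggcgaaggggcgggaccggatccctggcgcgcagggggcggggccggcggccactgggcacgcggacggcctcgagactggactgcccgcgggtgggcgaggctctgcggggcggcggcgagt

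The Per1 promoter shown has an E-box that begins 166 bases before the start site (a second Per1 promoter in the table holds none of the 3 motifs), and that of Cry1 has an E-box 60 bases and a CACGTT variant 79 bases before its start site. Nr1d1 has a CACGTT variant 28 bases before its start site, and Cry2, whose promoter is not shown, has 1 that begins 166 bases before. Per3 has a pair of D-boxes, TTATGTAA, which begin 205 and 158 bases before the start site, and it has no E-box in this window. Over all 32851 promoters of the same length, 7.15% held an E-box, 4.68% the variant CACGTT and 1.06% a D-box (TTATGTAA or TTACGTAA), so the D-box pair of Per3 is the least common of these matches. The promoters of Clock, Arntl, Npas2 and Dbp held none of the 3 motifs in these windows. A match describes letters in the sequence and is no evidence of binding in these neurons.

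All members were lower in immunopurified RNA than in the input or near its level. In the 3 saline libraries 9 of the 10 lay below the input in every library, where 44.9% of the 15888 measured genes did, and 6 of 10 were at least 2-fold lower in every library, where 23.1% of measured genes were. The median log2 ratio of immunopurified to input CPM was −1.72 over the members and −0.03 over all measured genes. No test was made, because the input is a single library of total RNA from all striatal cells. In such bulk samples fewer cells that hold a transcript and less of it per cell cannot be told apart. Nor can a smaller share of the transcript on ribosomes, because the pulled-down RNA is from polysomes and the input is total RNA. Scaling by trimmed means in place of library totals raised the median of all genes by 0.12 on the log2 scale, and no member's mean ratio then moved by more than the spread between libraries.

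**Figure D1:**
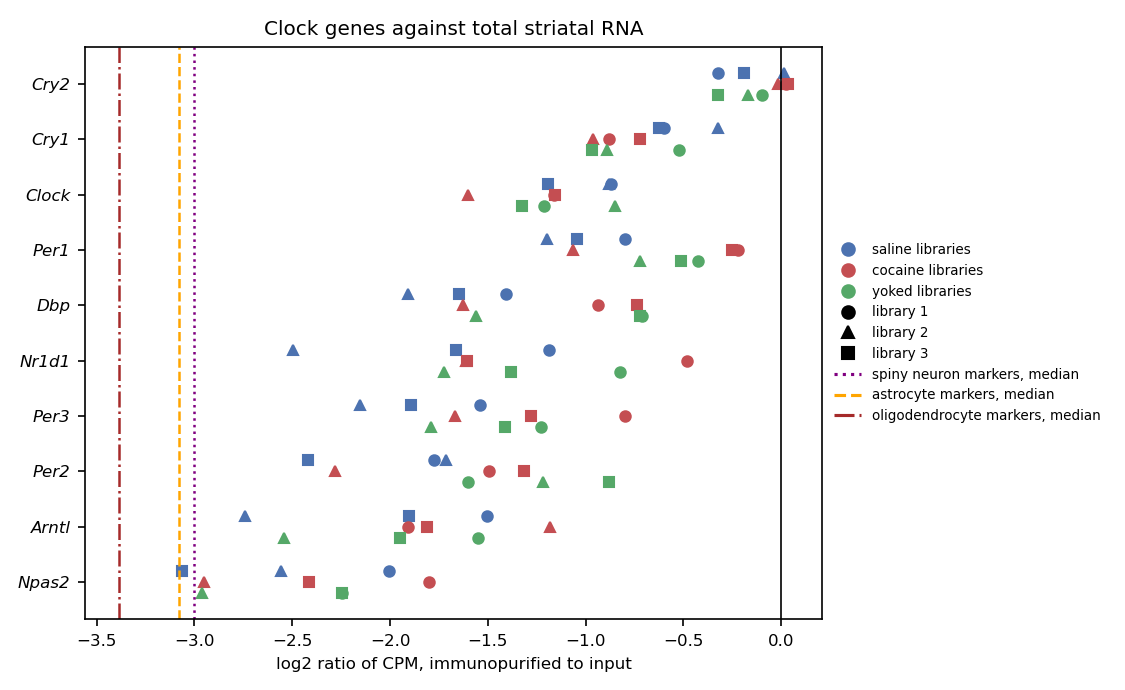
Log2 ratio of CPM in each immunopurified library to CPM in the input, for the 10 clock genes ordered by their saline mean; colours give the treatment group, shapes the library number, and vertical lines the median ratio of spiny neuron, astrocyte and oligodendrocyte markers in saline libraries. Npas2 lies farthest to the left, partly at the level of the spiny neuron markers, and Cry2 lies at the input level.

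Of the activators, Npas2 and Arntl had the lowest ratios to the input of all members, and Clock a higher one. Npas2 (chromosome 1, 39193702 to 39363240) measured 149 CPM in the input and 37.0, 25.3 and 17.7 CPM in saline libraries 1 to 3, a mean log2 ratio of −2.54 ± 0.53 (SD, n = 3) or 5.83-fold lower. Arntl (chromosome 7, 113178471 to 113314126) measured 33.0 CPM in the input and 11.6, 4.93 and 8.84 CPM after pull-down, 4.14-fold lower. Clock (chromosome 5, 76209868 to 76305603) differed less, with 366 CPM in the input and 201, 199 and 161 CPM in the saline libraries, 1.97-fold lower. The log2 ratio of Clock, −0.98 ± 0.18, lay above that of its relative Npas2 in all 9 immunopurified libraries.

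Among the inhibitors, the Cry genes kept closest to the input. Cry2 (chromosome 2, 92403646 to 92434085) measured 114 CPM in the input and 90.9, 115 and 99.9 CPM in saline libraries. Its log2 ratio was −0.16 ± 0.17 (SD, n = 3), which is no larger than its spread. D930015M05Rik, which is also counted, lies within the span of Cry2, so reads there may not be told apart. Cry1 (chromosome 10, 85131700 to 85185054) measured 24.3 CPM in the input and 16.0, 19.4 and 15.7 CPM, 1.43-fold lower. Per1 (chromosome 11, 69095108 to 69109965), which neurons also induce on activity, measured 41.3 CPM in the input and 23.7, 18.0 and 20.05 CPM, 2.02-fold lower. The other Per genes were further below the input. Per2 (chromosome 1, 91415977 to 91459351) measured 22.9 CPM in the input and 6.68, 6.97 and 4.28 CPM, 3.91-fold lower. Per3 (chromosome 4, 150997018 to 151044707) measured 44.2 CPM in the input and 15.2, 9.96 and 11.9 CPM, 3.63-fold lower.

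The repressor Nr1d1 and the output factor Dbp lay between these. Nr1d1 (chromosome 11, 98767932 to 98775377) measured 31.6 CPM in the input and 13.9, 5.60 and 9.98 CPM in saline libraries, 3.44-fold lower with a wide spread (SD of the log2 ratio 0.66, n = 3). Its end overlaps that of Thra, a thyroid hormone receptor gene at 479 to 813 CPM in the immunopurified libraries, so reads there may not be told apart. Dbp (chromosome 7, 45705100 to 45710203) measured 9.43 CPM in the input and 3.55, 2.51 and 3.02 CPM, 3.15-fold lower. Its end overlaps Sphk2, at 30.8 to 43.7 CPM in the immunopurified libraries, so reads there may not be told apart either. Dbp had the fewest reads, at the least 79 in saline library 2, where the 95% counting interval ran from 1.99 to 3.13 CPM. In order of the saline mean ratio the members were Npas2, Arntl, Per2, Per3, Nr1d1, Dbp, Per1, Clock, Cry1 and Cry2. Neighbours from Npas2 to Dbp differed by less than their SD, as did Per1 and Clock, while the steps from Dbp to Per1, from Clock to Cry1 and from Cry1 to Cry2 were larger than the SD of either.

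RNA of marker genes of other striatal cells was present in the immunopurified libraries and varied between them. Which cells this RNA came from was not tested. The 9 measured spiny projection neuron markers, all at least 2-fold below the input and none at 0 in any library, summed to 547 to 1312 CPM in saline, 566 to 1199 CPM in cocaine and 761 to 1042 CPM in yoked libraries, against 6122 CPM in the input. As a share of the input, saline libraries 1, 2 and 3 held 21.4%, 9.56% and 8.93%, the cocaine libraries 19.6%, 9.25% and 15.7%, and the yoked ones 17.0%, 12.4% and 16.7%. Oligodendrocyte markers, all 6 below the input, summed to 8.14% to 19.5% of it and astrocyte markers, again all 6, to 10.2% to 18.0%. Npas2, at 11.9% to 28.8% of its input level over the 9 libraries, came nearest to these shares, while Cry2 stayed at 79.9% to 103%. The part of other cells' RNA in the levels of the members was not tested.

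Other genes of the clock loops followed the members in part. Of 11 listed genes, 10 were below the input in all 3 saline libraries and 6 at least 2-fold. Hlf, a relative of Dbp, measured 785 CPM in the input and stood at a log2 ratio of −2.74 ± 0.40 (SD, n = 3), Rorb, an activator of Arntl, at −4.14 ± 0.41 and Bhlhe40, an E-box repressor, at −2.33 ± 0.50. Nr1d2, the second REV-ERB gene, stood at −0.15 ± 0.22 and Ciart, an inhibitor of the CLOCK and BMAL1 pair, at −0.40 ± 0.38. A list of 10 kinases and other genes that act on clock proteins, mostly on the life of PER and CRY, had a median log2 ratio of −0.22, with 5 genes below and 3 above the input in all 3 saline libraries. Usp2, a deubiquitinase, stood at −2.26 ± 0.34, and Timeless at −2.84 ± 2.25 with 1.34 CPM in the input; these 2 were at least 2-fold lower in every saline library. Csnk1e, a casein kinase that phosphorylates PER, stood at 0.57 ± 0.20, and Fbxl21, a ligase for CRY, at 0.50 ± 0.18, above the input in all 3 libraries.

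The comparison of cocaine with saline self-administration asked whether clock RNA on the ribosomes of these neurons differed after taking the drug. No member passed. The quasi-likelihood test of edgeR called 0 of 10, beside 0% of the 14989 genes tested, and the smallest adjusted p of a member was 0.850 (Benjamini-Hochberg). DESeq2 and limma voom with quality weights also called 0 members. At an unadjusted p under 0.05 there were 2 members, Per1 and Per3, beside 5.28% of all genes. The fold change was above 0 for 8 of 10 members, where it was for 50.6% of all genes, with a median log2 fold change of 0.35 over the members and 0.0049 over all genes. The 95% intervals reached between 0.33 and 0.93 to each side on the log2 scale.

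**Figure D2:**
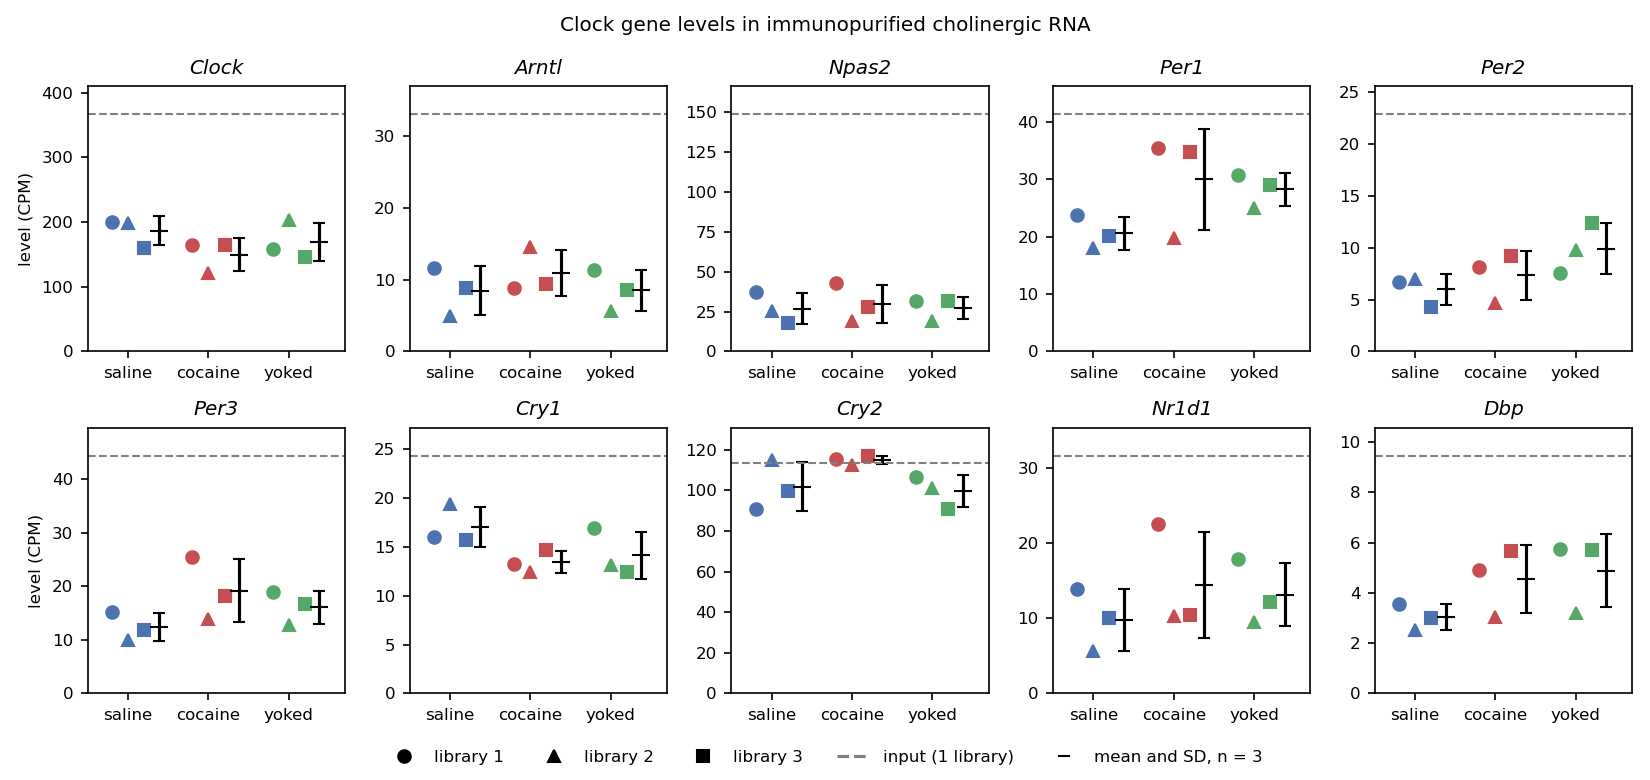
Level of each clock gene in CPM by treatment group; coloured points are single libraries with the shape giving the library number, black bars the mean and SD (n = 3), and the dashed line the input library. Library 2 (triangle) is the lowest of the cocaine group for Per1, Per2, Per3, Nr1d1 and Dbp and the highest for Arntl.

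Per1 and Per3 had the smallest p values among the members. Per1 measured 23.7, 18.0 and 20.05 CPM in saline libraries 1 to 3 and 35.5, 19.8 and 34.7 CPM in the cocaine libraries, a log2 fold change of 0.55 ± 0.24 (SE). Per3 measured 15.2, 9.96 and 11.9 CPM after saline and 25.5, 13.9 and 18.2 CPM after cocaine, a log2 fold change of 0.64 ± 0.28 (SE). For both, cocaine libraries 1 and 3 lay above all saline libraries and cocaine library 2 fell among them, so the groups overlap. The adjusted p was 0.850 for each in edgeR with Benjamini-Hochberg adjustment.

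Dbp, Nr1d1 and Per2 had fold changes above 0 and no unadjusted p under 0.05. Dbp measured 3.55, 2.51 and 3.02 CPM in saline libraries and 4.93, 3.06 and 5.66 CPM in cocaine libraries, a log2 fold change of 0.59 ± 0.43 (SE). Nr1d1 measured 22.6, 10.3 and 10.4 CPM after cocaine against 13.9, 5.60 and 9.98 CPM after saline, 0.56 ± 0.40. Cocaine library 1 alone lay above the saline libraries, and the value for Nr1d1 was 0.10 without it and 0.28 without saline library 2. Per2 measured 8.11, 4.71 and 9.19 CPM after cocaine against 6.68, 6.97 and 4.28 CPM after saline, 0.31 ± 0.35, with the 2 groups overlapping.

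None of the activators or Cry genes passed the test, and Clock, Cry1 and Cry2 were the members whose groups lay apart on at least 1 scale. Arntl measured 8.81, 14.6 and 9.43 CPM after cocaine against 11.6, 4.93 and 8.84 CPM after saline; its highest and lowest values were both in libraries numbered 2. Npas2 measured 42.7, 19.2 and 27.8 CPM after cocaine against 37.0, 25.3 and 17.7 CPM, with cocaine library 1 above the saline libraries and the other two among them. Clock measured 164, 121 and 164 CPM after cocaine against 201, 199 and 161 CPM, a log2 fold change of −0.31 ± 0.17 (SE). Cry1 measured 13.2, 12.4 and 14.7 CPM after cocaine against 16.0, 19.4 and 15.7 CPM, a log2 fold change of −0.33 ± 0.24. Cry2 measured 116, 113 and 117 CPM after cocaine against 90.9, 115 and 99.9 CPM, 0.19 ± 0.15. On the scaled values of the fit the groups of 3 members did not overlap (Cry2 higher, Clock and Cry1 lower), beside 10.5% of all genes. On plain CPM this held for Cry1, while Clock and Cry2 overlapped.

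The comparison of yoked controls with saline also called 0 of 10 members, beside 0% of all genes, with a smallest adjusted p of 0.999 (edgeR, Benjamini-Hochberg). No member had an unadjusted p under 0.05, where 2.18% of all genes had, and 7 of 10 fold changes were above 0, where 47.9% of all genes were. Per2 measured 7.53, 9.81 and 12.4 CPM in yoked libraries 1 to 3, all above the highest saline library at 6.97 CPM, with a log2 fold change of 0.72 ± 0.35 (SE). Per1 measured 30.7, 25.1 and 29.0 CPM, all above the highest saline library at 23.7 CPM, with 0.44 ± 0.24. These were the 2 members whose groups did not overlap, beside 7.28% of all genes. Dbp measured 5.77, 3.19 and 5.71 CPM (0.69 ± 0.43), Per3 18.9, 12.8 and 16.6 CPM (0.37 ± 0.28) and Nr1d1 17.8, 9.55 and 12.1 CPM (0.42 ± 0.40). As groups, Dbp and Per3 overlapped saline through yoked library 2 and Nr1d1 through yoked libraries 2 and 3. Set beside the saline library of equal number, the yoked library was higher in 3 of 3 pairs for Per1, Per2, Per3, Nr1d1 and Dbp. None of the other members was higher in all 3 pairs. The share of all genes higher in 3 of 3 pairs was not counted, so these pairs have no background to be read against. The labels do not say that equal numbers mark matched animals. With the replicate number as a block the adjusted p of each of these members was 0.999 (edgeR). Cry1 measured 16.9, 13.1 and 12.4 CPM and Cry2 106, 101 and 91.0 CPM, with log2 fold changes of −0.28 and −0.05. Clock measured 158, 203 and 146 CPM, Arntl 11.3, 5.66 and 8.55 CPM and Npas2 31.3, 19.1 and 31.3 CPM, with log2 fold changes of −0.16, 0.0012 and 0.03. Both comparisons use the same saline libraries, and these were on another lane.

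The comparison of cocaine with yoked animals set apart groups that carry the same lane number. It called 0 of 10 members, beside 0% of all genes, with a smallest adjusted p of 0.9997 (edgeR, Benjamini-Hochberg), and no member had an unadjusted p under 0.05, where 2.61% of all genes had. The fold change was above 0 for 6 of 10 members and 50.2% of all genes. Per1 was at 30.0 ± 8.85 CPM in the cocaine and 28.3 ± 2.90 CPM in the yoked group (SD, n = 3), and its log2 fold change of 0.10 had a 95% interval of −0.40 to 0.61. Dbp was at 4.55 ± 1.34 and 4.89 ± 1.47 CPM (log2 fold change −0.09, interval −1.01 to 0.82). Per2 had the value farthest below 0, at 7.34 ± 2.34 against 9.92 ± 2.44 CPM (−0.41, interval −1.15 to 0.33). Cry2 was the 1 member whose groups did not overlap, beside 6.99% of all genes: the cocaine libraries lay between 113 and 117 CPM and the yoked libraries between 91.0 and 106 CPM, with a log2 fold change of 0.24 ± 0.15 (SE). The test for any difference among the 3 groups called 0 members and 0% of all genes, and its smallest unadjusted p among members was 0.088 for Per1, where 2.8% of all genes were under 0.05.

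**Figure D3:**
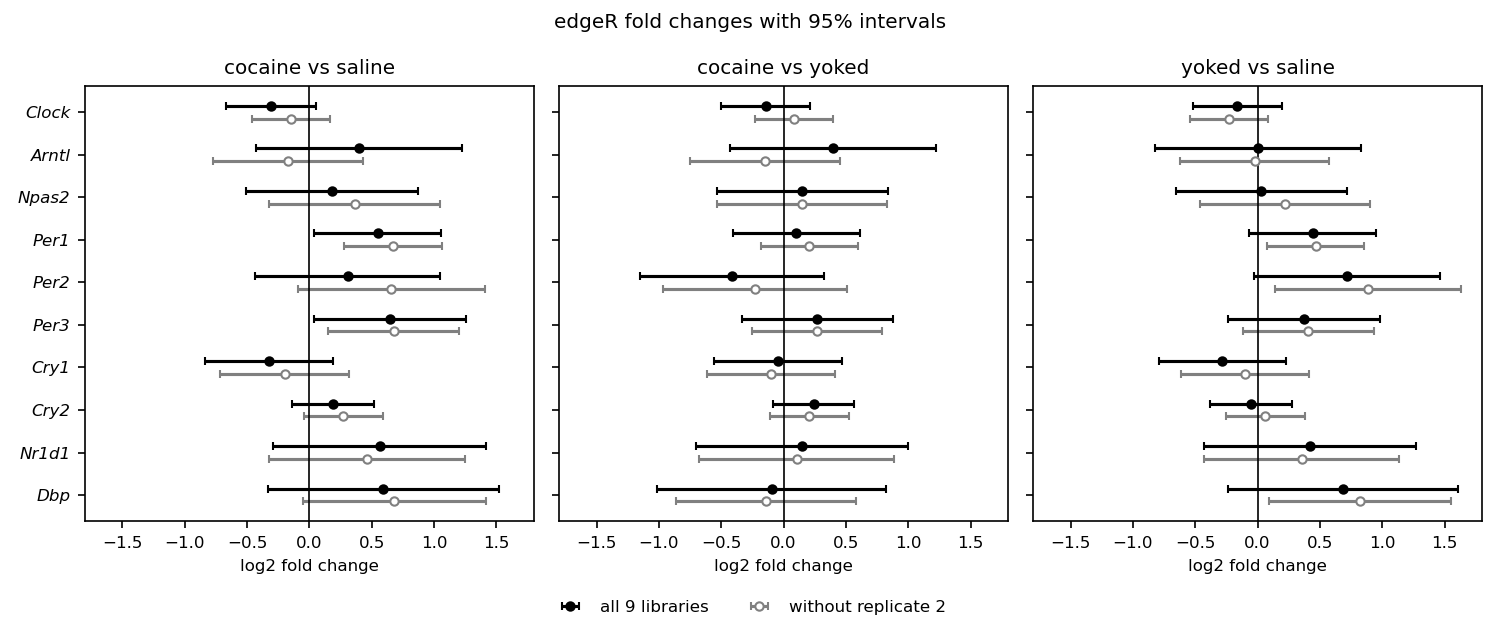
Log2 fold change of each clock gene with its 95% interval in the 3 comparisons, from edgeR with all 9 libraries (filled) and without the 3 libraries numbered 2 (open). With all 9 libraries the intervals of Per1 and Per3 lie above 0 for cocaine against saline before adjustment, and Arntl changes side without the libraries numbered 2.

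Without the 3 libraries numbered 2, the Per genes and Dbp stood farther from saline in both other groups, and no member passed. For cocaine against saline the log2 fold change of Per1 was 0.67 ± 0.18 (SE, unadjusted p = 0.00307 in edgeR), of Per3 0.68 ± 0.24, of Per2 0.66 ± 0.34 and of Dbp 0.68 ± 0.33. For yoked against saline it was 0.47 ± 0.18 for Per1, 0.88 ± 0.34 for Per2, 0.41 ± 0.24 for Per3 and 0.82 ± 0.33 for Dbp. The smallest adjusted p of a member in these fits was 0.9997 (edgeR, Benjamini-Hochberg). For Per2 the groups of 2 libraries were 6.68 and 4.28 CPM after saline, 8.11 and 9.19 CPM with cocaine, and 7.53 and 12.4 CPM for yoked. Arntl turned from 0.40 to −0.17 for cocaine against saline and from 0.40 to −0.15 for cocaine against yoked. At an unadjusted p under 0.05 there were 2 of 10 members for cocaine against saline, beside 3.46% of all genes, 3 for yoked against saline, beside 3.01%, and 0 for cocaine against yoked, beside 1.31%.

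Of 6 pairs of members tested for co-variation over the 9 immunopurified libraries, 1 passed, Dbp with Per3. Dbp and Per3 had a Pearson r of 0.83 (exact permutation p = 0.00445, adjusted over 6 pairs 0.0267, two-sided). Their Spearman rho was 0.88 (exact permutation p = 0.00308). Without the 2 libraries farthest from the median of Dbp, r was 0.88. With group means removed r was 0.81 (adjusted p = 0.0676, exact permutation), and without the 3 libraries numbered 2 it was 0.67 (adjusted p = 0.492, exact permutation, n = 6), so the relation passed with all libraries as measured and in neither of these settings. Dbp and Nr1d1 had an r of 0.69 (rho 0.70, adjusted p = 0.107, exact permutation) and Per1 and Per2 of 0.60 (rho 0.63, adjusted p = 0.151, exact permutation). Beyond the 6 pairs, r was 0.92 for Dbp with Per1, whose promoters held no D-box in the windows searched. Per3 had an r of 0.91 with Per1 and of 0.91 with Nr1d1. D-boxes outside these windows were not searched for, and a role of the D-box was not tested.

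Arntl did not run opposite to the genes it controls in a way that passed the test. Its r was 0.39 with Dbp (rho 0.40), 0.58 with Nr1d1 (rho 0.48) and −0.35 with Per2 (rho −0.50), with exact permutation p values adjusted over the 6 pairs of 0.355, 0.151 and 0.355. Without the 2 libraries farthest from the median of the first gene these were 0.37, 0.50 and −0.56. Over all 45 pairs of members r ranged from −0.66 (Clock and Arntl) to 0.92 (Per1 and Dbp), with a median of 0.14. Cry1 had a negative r with each of Per1, Per2, Per3, Nr1d1 and Dbp, from −0.42 (Per2) to −0.28 (Dbp).

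**Figure D4:**
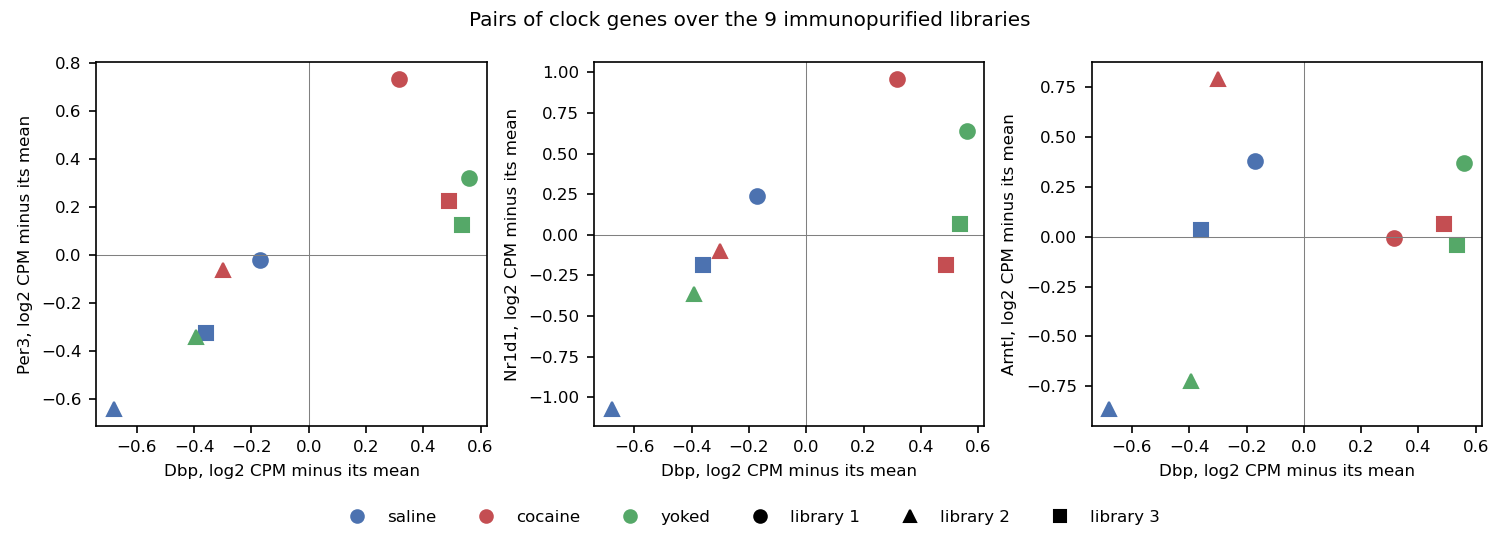
Log2 CPM of Per3, Nr1d1 and Arntl against Dbp in the 9 immunopurified libraries, each minus the gene's mean, scaled as in the fit; colours give the group and shapes the library number. Dbp and Per3 lie along a line (r = 0.83), while Arntl is at its highest and lowest values in libraries numbered 2.

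The genes most like Dbp across the 9 libraries, among 10243 genes of at least 5 CPM, were Pla2g16 (r = 0.97), Iqcc, A330102I10Rik, Rnpepl1 and Tenm3 (r = 0.94), with AA388235 (−0.97) and Slc35g2 (−0.93) toward the other end. In this order Per1 ranked 7, Tef, a relative of Dbp, ranked 15 (r = 0.87) and Per3 ranked 44. The genes most like Arntl were Armcx1 (r = 0.96), Bms1, Tfr2, Mak16 and Rnf166 (0.95), and the least like it Srebf2, a factor of sterol synthesis (−0.99), Dtd1 and Wdr33. Of the members Nr1d1 came nearest to Arntl, at rank 1301. These are descriptions over 9 libraries that differ in depth and in marker RNA of other cells. Nearest neighbours out of so many genes reach high r in so few libraries.

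Averaged over Per1, Per2, Per3, Nr1d1 and Dbp, log2 CPM minus each gene's mean stood at −0.05, −0.61 and −0.39 for saline 1, 2 and 3, at 0.52, −0.27 and 0.25 for cocaine and at 0.37, −0.18 and 0.34 for yoked. The 4 lowest were saline libraries 2 and 3, cocaine library 2 and yoked library 2. These were also the 4 libraries with the least spiny neuron marker RNA, at 8.93% to 12.4% of the input sum. The other 5 stood at 15.7% to 21.4%. This split is of the sum, and not every marker followed it. Penk averaged 141 CPM over the cocaine libraries and 137 CPM without library 2. Tac1 lay between 11.1 and 11.6 CPM in the yoked libraries. How many markers followed the sum was not counted. Oligodendrocyte marker RNA was least in the same 4, at 8.14% to 11.2% against 14.1% to 19.5%. Astrocyte markers did not split the libraries so, with yoked library 2 at 14.5%, yoked library 3 at 13.9% and cocaine library 3 at 12.5%. Nor did cortical glutamatergic neuron markers, with cocaine library 1 at 9.08%, yoked library 2 at 7.02% and yoked library 3 at 1.79%. Microglia markers did not either, with yoked library 2 at 22.5%, saline library 1 at 20.3% and cocaine library 1 at 18.7%. Saline library 1 had the most spiny neuron marker RNA of all and lay near the mean of the 5 genes. Npas2, which is not among the 5, was below its own mean in saline libraries 2 and 3 (−0.11 and −0.56). It was also below in cocaine library 2 (−0.40) and yoked library 2 (−0.57), and above its mean in the other 5 libraries. The part of RNA from any of these cell types in the levels of the clock genes was not tested.

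**Figure D5:**
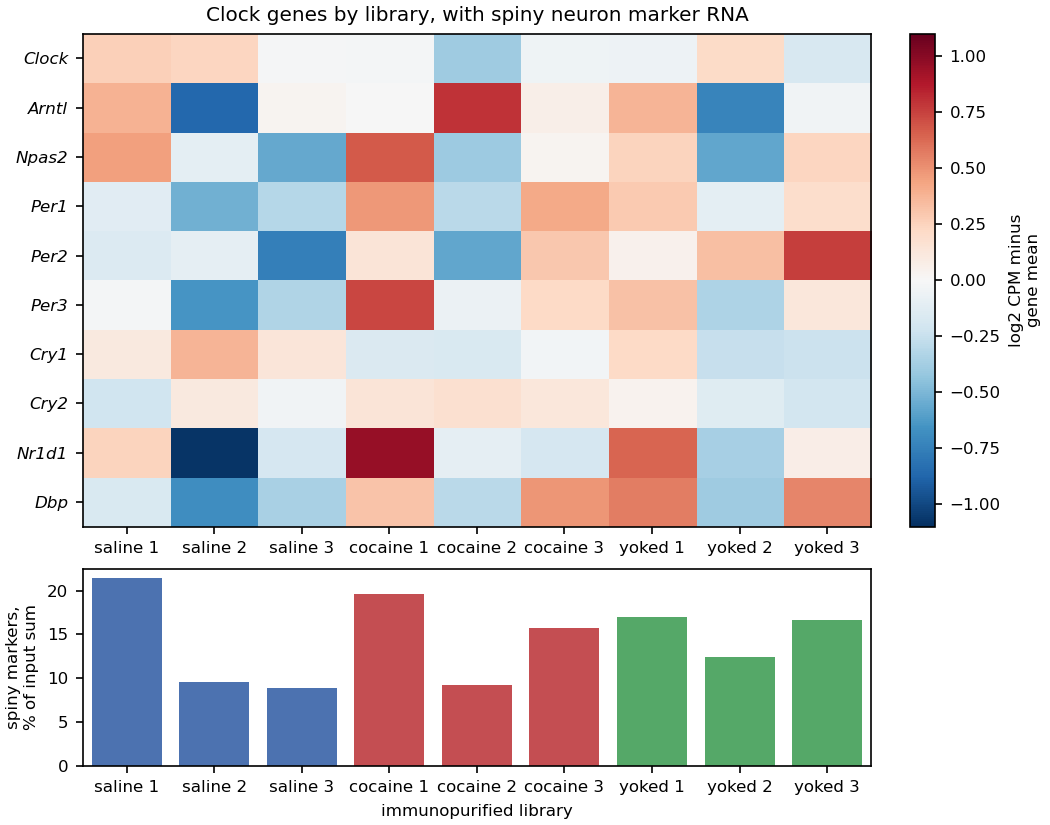
Top, log2 CPM of each clock gene minus its mean over the 9 immunopurified libraries (red higher, blue lower); bottom, the summed CPM of 9 spiny neuron markers as a percentage of their sum in the input. The libraries with short bars, saline 2 and 3, cocaine 2 and yoked 2, are blue for Npas2, Per1, Per3, Nr1d1 and Dbp. Per2 is red in yoked 2. Among the taller bars, saline 1 is also below 0 for Per1, Per2, Per3 and Dbp, and cocaine 3 for Nr1d1.

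The rest of the clock lists gave no call. Of the 11 other loop genes 0 passed in any comparison (edgeR, Benjamini-Hochberg), with a median log2 fold change of 0.20 for cocaine against saline, 0.03 for yoked against saline and −0.01 for cocaine against yoked. Tef measured 111, 83.9 and 87.2 CPM in saline, 108, 95.7 and 117 CPM in cocaine and 128, 94.1 and 107 CPM in yoked libraries. Ciart measured 6.56, 7.92 and 4.68 CPM in saline, 7.99, 9.57 and 5.83 CPM in cocaine and 10.004, 5.80 and 4.59 CPM in yoked libraries, so that its groups overlapped throughout. Of the 10 kinase and turnover genes 0 passed, and their median log2 fold changes lay between −0.06 and 0.02.

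Signals that act on Per1 and Per2 from outside the loop were counted beside them. Of 8 activity-induced genes 0 passed, with 6 fold changes above 0 and 2 below for cocaine against saline. For yoked against saline 7 were above 0 and 1 below, where 47.9% of all genes were above 0. Fosb, with the smallest p among them, measured 0.971 ± 0.454 CPM in saline, 1.90 ± 0.899 CPM in cocaine and 3.97 ± 1.95 CPM in yoked libraries (SD, n = 3). Junb measured 1.498 ± 0.732, 2.99 ± 1.97 and 3.75 ± 2.23 CPM in the same order. Of 6 glucocorticoid-induced genes 0 passed. For cocaine against saline 2 had fold changes above 0 and 4 below, with a median log2 fold change of −0.07. For yoked against saline 3 were above 0 and 3 below. Fkbp5, with the smallest p among them, was at 11.2 ± 2.86, 16.9 ± 4.46 and 12.7 ± 1.81 CPM. Of 7 tested heat and cold responsive genes 0 passed, with 4 fold changes above 0 and 3 below for cocaine against saline. For yoked against saline 2 were above 0 and 5 below. The chaperone Hsph1, with the smallest p among them, was at 267 ± 34.6, 342 ± 104 and 276 ± 30.8 CPM. Its level in cocaine library 2 was 459 CPM.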

How the data were processed

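The deposited values are raw counts of reads per gene symbol, 1 table per library, made by the authors without normalisation. The submitters' processing notes name STAR 2.0.0e, HTSeq and the build mm10; annotation and strand setting are not given in the sources used here, so reads of overlapping genes may not be told apart. HTSeq's rows for reads in no gene, ambiguous or not uniquely aligned, and 4 reads on a row named unknown were left out; reads in no gene were 7.04% to 11.2% of the immunopurified libraries and 15.2% of the input. Levels are CPM of gene counts; counting intervals are exact Poisson intervals (95%), which cover counting error only.

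The 9 immunopurified libraries entered 1 edgeR 4.0.16 quasi-likelihood fit (R 4.3.3, TMM scaling, robust, 6 residual degrees of freedom) on 14989 genes kept by edgeR's filter (minimum count 10, minimum total 15). p values were adjusted over all genes by Benjamini-Hochberg, with a threshold of 0.05. TMM factors lay between 0.949 and 1.06. Ratios to input used genes with at least 20 counts in the input or the mean saline library. Alternatives were RLE factors, no filter, DESeq2 1.42.0, limma 3.58.1 voom, a replicate block and left-out libraries. Steps were tested on simulated data.

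Deviations of yoked and saline libraries of equal number correlated (r = 0.29, 0.20 and 0.19 across genes). For cocaine libraries r was 0.27, 0.07 and 0.05 with saline and 0.25, 0.07 and 0.23 with yoked libraries. The labels do not say that equal numbers mark matched animals. The main fit therefore took no pairing, and the replicate block was an alternative.

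The members and lists were chosen with earlier results of these data known. All members were named, with genes of the fixed clock lists, at most 2 genes of each other list by smallest p, and the nearest and farthest genes in r from Dbp and Arntl, of which 1 is not reported here. Pairs beyond the 6 tested were described after their values were seen.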

Additional observations from a re-analysis of the deposited data

How the results depend on the processing

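No member was called in any alternative run, where the smallest adjusted p was 0.571 (edgeR without a filter on low counts). Without that filter edgeR called 60 genes between cocaine and saline, 27 between cocaine and yoked, 18 between yoked and saline and 98 for any difference, against 0 with it; the cause was not tested. The replicate block, RLE factors, DESeq2, voom and every left-out library kept these counts at 0. With the replicate block no call changed; of the 9 libraries 8 correlated best with a library of their own number. Of 30 log2 fold changes of members 18 kept their direction in every alternative, among them all of Per2 and Per3 and, against saline, Clock, Per1, Cry1, Nr1d1 and Dbp.

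Voom turned cocaine against yoked to 0.021 for Clock and −0.058 for Nr1d1, and yoked against saline to 0.0038 for Cry2. Leaving out libraries moved cocaine against saline between −0.17 and 0.68 for Arntl and between −0.16 and 0.48 for Npas2. It moved cocaine against yoked between −0.23 and 0.082 for Clock, −0.15 and 0.68 for Arntl, −0.19 and 0.37 for Npas2, −0.030 and 0.32 for Per1, −0.12 and 0.13 for Cry1, −0.32 and 0.45 for Nr1d1, and −0.34 and 0.11 for Dbp. It moved yoked against saline between −0.28 and 0.28 for Arntl, −0.18 and 0.33 for Npas2, and −0.13 and 0.062 for Cry2. The cause was not tested.

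Over all 9 immunopurified libraries in place of the 3 saline ones, 2 members and not 6 were at least 2-fold below the input in every library. A rule over 9 libraries is stricter than one over 3, and the share of all measured genes that met it was not counted. The r of Dbp and Per3 was 0.81 with group means removed and 0.67 without the libraries numbered 2, neither past the threshold, and that of Dbp and Arntl was −0.12 without these libraries. Depth limits Dbp most, with 79 reads in 1 library.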
